A study of Mus musculus with 4 samples.

Results

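The 6 genes described here, Cartpt, Tafa4, Ptn, Mdk, Adam28 and Mslnl, were grouped as genes of secreted or shed proteins. For Mslnl this rests on sequence likeness alone. Levels were followed across the cell types of the main olfactory epithelium and the clusters of mature olfactory sensory neurons (OSNs). A further division was by the neuron populations that each use a given olfactory receptor. The members are 6 of the 55511 genes counted. They were chosen by their levels in mature OSNs in earlier results from these data, which had set them apart among OSN populations, so their pattern in mature OSNs was described without a test. The working description of the genes was that each marks a single neuron population. The counts went against this description: no member was held by a single population, and 15 to 81 of the 353 populations examined were needed to reach 50% of a member's summed level, apart from Mdk. For Mdk, which had a single UMI in most populations that held any, the number was 13, and 7 without mouse 1.

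The study sequenced RNA from single live nucleated cells of the main olfactory epithelium of 4 male C57BL/6 mice aged 8 weeks. All mice belonged to a single untreated group at rest, with no genetic change named in their labels, and each gave 1 library. The cells were sorted with a DNA dye and a dye that enters dead cells, and captured with a droplet method that counts the 3′ ends of RNA molecules by unique molecular identifiers (UMIs). The authors' labels gave each cell a type, most mature OSNs a cluster from a clustering without receptor genes, and each mature OSN with a clear receptor an identity.

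In the olfactory epithelium, horizontal basal cells (HBCs) are the reserve stem cells and globose basal cells (GBCs) the dividing progenitors. GBCs give rise to immediate neuronal precursors (INPs), then to early and late immature OSNs (iOSN1 and iOSN2) and to mature OSNs (mOSNs), beside sustentacular (Sus) and microvillar (Mv1 and Mv2) cells. A mature OSN uses a single receptor gene, and its axon joins those of neurons with the same receptor in a glomerulus of the olfactory bulb. Class I receptors, encoded in a cluster on chromosome 7, are used mostly by neurons of the dorsal epithelium, whereas class II receptors are used in both the dorsal and the ventral epithelium.

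The members differ in role. Cartpt encodes the precursor of the CART neuropeptides, which are cut from it and released from dense core granules. Tafa4 encodes a small chemokine-like protein that is secreted by certain sensory neurons of the skin. Ptn (pleiotrophin) and Mdk (midkine) encode related heparin-binding growth factors that bind syndecans and the receptor phosphatase Ptprz1. Adam28 encodes a metalloprotease-disintegrin with membrane-bound and secreted forms, and Mslnl is named for its sequence likeness to mesothelin, a cell surface protein that can be shed.

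In the genome annotation (GRCm38), Cartpt spans chr13:99898489-99901091 on the minus strand, Tafa4, which that annotation lists as Fam19a4, chr6:96831203-97060413 (minus), and Ptn chr6:36714929-36810220 (minus). Mdk spans chr2:91929805-91932297 (minus), Adam28 chr14:68606027-68655842 (minus) and Mslnl chr17:25736042-25748330 (plus). Promoter sequences of 2 genes are shown, of Cartpt because it holds the only motif match among the members and of Tafa4 because its levels were the most divided between receptor classes. The sequences are from RefSeq (GRCm38.p6), read 5′ to 3′ on the gene's strand. In the Cartpt stretch (chr13:99900777-99900806, minus), the capitals mark a cAMP response element that begins 112 bases before the RefSeq start of the window, a start that lies inside the longer gene span given above. The Tafa4 stretch covers the 250 bases before its RefSeq start (chr6:97060412-97060661, minus).
Cartpt: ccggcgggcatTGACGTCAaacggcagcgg
Tafa4: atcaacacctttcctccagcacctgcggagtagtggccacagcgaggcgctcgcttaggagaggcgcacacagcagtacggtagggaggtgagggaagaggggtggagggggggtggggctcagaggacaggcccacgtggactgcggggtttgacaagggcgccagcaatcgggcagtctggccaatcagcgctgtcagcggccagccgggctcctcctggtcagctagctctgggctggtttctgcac
Promoter windows were found for 4 of the 6 members, and not for Mdk or Adam28. The letters TGACGTCA (the cAMP response element), searched on both strands, occurred in 1.80% of 32544 distinct promoter windows of the same length, TAATTA (bound by homeodomain factors) in 5.29% and the Ebf motif in 0.913%. The Cartpt element was the only match of the 3 motifs among the members' 4 windows, and a match describes letters in a window.

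The 4 libraries held 4746 to 6003 barcodes each, 21809 in all, and 23157467 to 32382702 UMIs. Mature OSNs numbered 1887 to 3230 per mouse, and their median depth lay between 4004 and 6591 UMIs. The labelled types carried their defining markers: Omp was highest in mOSNs (72.1 UMIs per 10000) and Krt5 in HBC1 (21.3). HBC2 carried the HBC markers Krt5, Krt14 and Trp63 at 7.28, 8.47 and 1.75, each below HBC1, together with the sustentacular markers Cyp2g1, Sult1c1 and Ermn at 25.7, 3.47 and 1.59, each below sustentacular cells, so values in HBC2 were read as those of a cluster with markers of both types. Between mice, 54 barcodes occurred more than once, in 108 cells. A level below is the sum of a gene's UMIs over the cells named, per 10000 UMIs of all genes, given per mouse or as mean ± SD over 4 mice. Cells of a mouse share an animal and a library, so mice and not cells were the replicates.

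Across cell types the members fell into those highest in OSNs (Cartpt, Tafa4 and Mslnl), those highest in HBCs (Ptn and Adam28) and one highest in GBCs (Mdk). The 6 genes had 83705, 632, 23311, 3177, 8234 and 26177 UMIs in all barcodes, in the order Cartpt, Tafa4, Ptn, Mdk, Adam28 and Mslnl. The depth behind a Tafa4 value was therefore small in all cells, and that behind a Mdk value small in neurons.

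Cartpt stood at 16.9, 13.8, 14.3 and 14.0 UMIs per 10000 in iOSN2 of mice 1 to 4, and at 13.9, 11, 12.6 and 11.8 in mOSNs. These neighbouring levels overlapped between mice, and both lay above iOSN1 at 1.79 ± 0.298. The other retained types ranged from 0.107 ± 0.0741 in Mv2 to 0.658 ± 0.234 in HBC2. Mv1 was set by a single mouse, with 2.26 in mouse 2 against at most 0.145 in the other mice. A Cartpt UMI was found in 74.1 ± 3.61% of mOSNs (median depth 4861 UMIs) and in 2.70 ± 1.52% of Mv2 cells (median depth 5081), which are not neurons. Mv2 had the lowest share of the retained types. The share was 5.10 ± 0.875% in HBC2, 5.73 ± 1.36% in sustentacular cells and 7.03 ± 3.86% in GBCs.

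Mslnl followed a like course along the neuronal lineage. Its level was 3.85, 3.55, 3.35 and 4.07 in mOSNs of mice 1 to 4 and 3.53 ± 0.180 in iOSN2, 2 levels that overlapped. It was 2.17 ± 0.196 in iOSN1 and 1.06 ± 0.254 in INPs, the type before them, so its UMIs were present earlier in the lineage than those of Cartpt, which had 0.231 ± 0.0771 in INPs. All retained types outside the neuronal lineage lay at or below 0.559 ± 0.479 (HBC1, 51 UMIs). A Mslnl UMI was found in 62.9 ± 4.06% of mOSNs and in 1.31 ± 0.373% of Mv2 cells.

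Tafa4 was a rare transcript in all types. Its level in mOSNs was 0.121, 0.0745, 0.119 and 0.0523 in mice 1 to 4, from 509 UMIs, and in iOSN2 it was 0.0789 ± 0.0496. The order mOSN, iOSN2, Mv1 (3 UMIs) and iOSN1 (0.0391 ± 0.0274) held no step beyond the spread between mice. A Tafa4 UMI was found in 3.69 ± 1.69% of mOSNs and in 0.0622 ± 0.124% of Mv2 cells. No Tafa4 UMI was counted in INPs, HBC1 or sustentacular cells. A count of 0 allows up to 0.0289 UMIs per 10000 in HBC1, which is below the mOSN level.

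Ptn was highest in HBC1, with 10.6, 10.9, 14.7 and 10.1 in mice 1 to 4, and 94.7 ± 4.74% of those cells held a Ptn UMI. iOSN2 followed with 5.59 ± 0.257, above mOSNs in every mouse. HBC2 (2.58 ± 0.445), mOSNs (2.55 ± 0.262) and GBCs (2.39 ± 0.244) overlapped. Between the progenitors and the late immature neurons the level dipped, to 0.128 ± 0.0241 in INPs and 1.61 ± 0.123 in iOSN1. Mv2 cells had the lowest level, 0.0380 ± 0.0227, with a Ptn UMI in 1.49 ± 0.797% of cells against 44.4 ± 5.55% of mOSNs.

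Adam28 was also highest in HBC1, with 5.39, 5.19, 6.72 and 5.37 in mice 1 to 4. HBC2 followed with 1.98 ± 0.527, then mOSNs with 1.06, 0.945, 1.01 and 1.01. Each of these 3 types was separated from the next without overlap between mice. iOSN2 lay at 0.855 ± 0.0681 and iOSN1 at 0.198 ± 0.0368, while INPs, GBCs, sustentacular and microvillar cells all lay below 0.06. An Adam28 UMI was found in 29.7 ± 4.19% of mOSNs and in 1.03 ± 0.679% of Mv2 cells. Adam28 and Ptn thus shared their highest type, the reserve stem cells, and both had their neuronal levels in the later stages.

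Mdk was highest in the dividing progenitors and lowest in OSNs among the retained types. Its level in GBCs was 11, 9.28, 8.02 and 5.94 in mice 1 to 4, above all other types in every mouse, and 77.9 ± 7.51% of GBCs held a Mdk UMI. HBC1 (1.5 ± 0.446) and INPs (1.28 ± 0.638) came next and overlapped. In mOSNs the level was 0.00871 ± 0.00407, from 50 UMIs in 10519 cells, and the share of mOSNs with a Mdk UMI, 0.448 ± 0.221%, was below that of Mv2 cells, 3.41 ± 0.524%. The GBC cluster also had the highest levels of the glial marker Fabp7 (1.10) and of the stromal markers Col1a1 (0.78) and Col1a2 (0.861) among the retained types, whereas the glial marker Sox10 was highest in sustentacular cells (1.54, with 0.172 in GBCs) and the stromal marker Dcn in HBC2 (7.79, with 3.52 in GBCs). Their part in the Mdk level was not tested.

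Between mOSNs and Mv2 cells, the shares of cells with a UMI kept their order at equal depth. Other orders could change. For Adam28 the share was 33.0% in iOSN2 and 29.7% in mOSNs over all cells, and 28.2% and 30.6% at equal depth. With every cell thinned to 5000 UMIs, which left 4983 of 10519 mOSNs and 905 of 1768 Mv2 cells, the mean share over mice in mOSNs and in Mv2 cells was 73.7% and 3.03% for Cartpt, 44.3% and 1.92% for Ptn, 30.6% and 0.485% for Adam28, and 60.3% and 1.90% for Mslnl. For Tafa4 it was 3.22% and 0%, and for Mdk, the only member with the lower share in mOSNs, 0.405% and 4.29%.

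**Figure D1:**
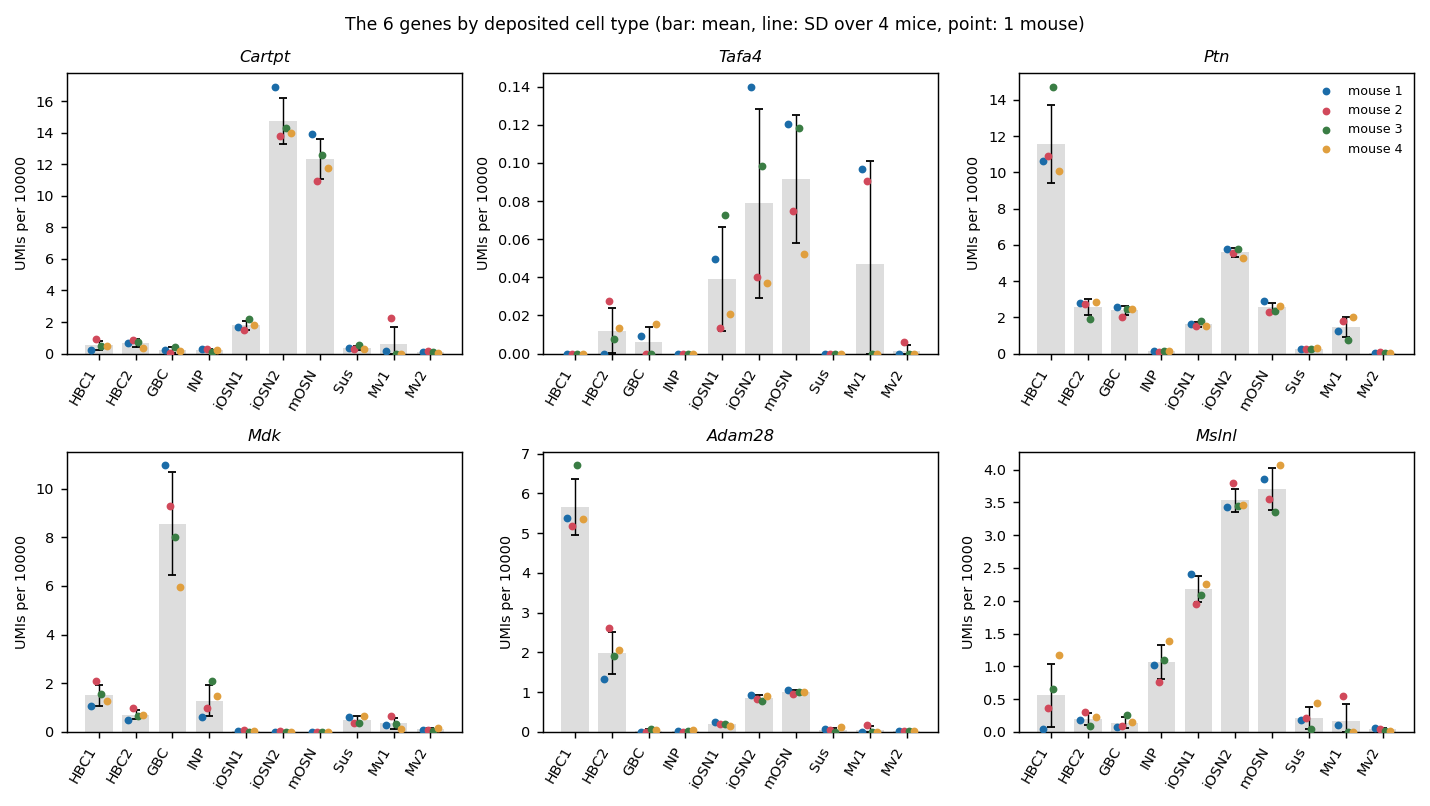
Level of each of the 6 genes in each labelled cell type, in UMIs per 10000 (y axis), with 1 point per mouse, a bar for the mean and a line for the SD over 4 mice. Cartpt, Tafa4 and Mslnl are highest in neurons, Ptn (11.6 in HBC1) and Adam28 (5.67 in HBC1) in horizontal basal cells, and Mdk (8.55) in globose basal cells.

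Most of the mature OSNs had been divided into 10 clusters, named for dorsal (D.) or ventral (V.) position and for Cd55, Cd36, Calb2 or Dlg2. The members were among the genes from which such clusters can be formed, so their levels in the clusters are a description.

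Cartpt was high throughout the dorsal clusters and was graded among the ventral ones. Its level in the Cd55+ D. cluster was 45.3, 28, 25.1 and 37.1 in mice 1 to 4, and the other dorsal clusters ranged from 22.7 ± 3.57 (Dlg2+ D.) to 27.8 ± 1.82 (Calb2+ D.), each overlapping with its neighbour in that order. The Cd55+ V. cluster, at 21.7 ± 1.84, overlapped with the lowest dorsal cluster. The other ventral clusters ran from 11.2 ± 0.654 (Cd36+ V.) to 5.25 ± 0.309 in the unmarked Ventral cluster. Summed over clusters, dorsal mOSNs stood at 25.2 ± 2.14 and ventral mOSNs at 7.14 ± 0.394.

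Ptn, Adam28 and Mslnl shared a different division. Ptn was 7.77 ± 0.856 in Calb2+ D., 4.86 ± 0.258 in Dorsal, 3.97 ± 0.517 in Calb2+ V. and 3.07 ± 0.360 in Dlg2+ D. Neighbours in this order did not overlap between mice, although the lowest mouse in Calb2+ V. (3.50) lay close to the highest in Dlg2+ D. (3.48). Ptn was at most 0.343 ± 0.190 in the Cd55+ and Cd36+ clusters of either side. Mslnl was between 3.55 ± 0.528 and 4.50 ± 0.340 in the 6 clusters without Cd55 or Cd36 and between 0.0635 ± 0.0276 and 0.654 ± 0.158 in the other 4. Adam28 was between 0.621 ± 0.111 and 1.28 ± 0.0513 in those 6 clusters and at most 0.0401 ± 0.0801 in the other 4. The low levels of these 3 genes thus followed Cd55 and Cd36 on both sides of the epithelium, while Cartpt was high in both Cd55+ clusters.

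Tafa4 was a dorsal transcript. Its level was 0.717 ± 0.213 in Cd36+ D., 0.673 ± 0.336 in Cd55+ D., 0.302 ± 0.141 in Dlg2+ D., 0.265 ± 0.0877 in Dorsal and 0.192 ± 0.0732 in Calb2+ D., with overlap between neighbours. All ventral clusters had means below 0.01, and the highest value of a single mouse was 0.0156 (Cd55+ V., mouse 1). Mdk lay at or below 0.0269 ± 0.0310 in every cluster, and all its neighbouring clusters overlapped.

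**Figure D2:**
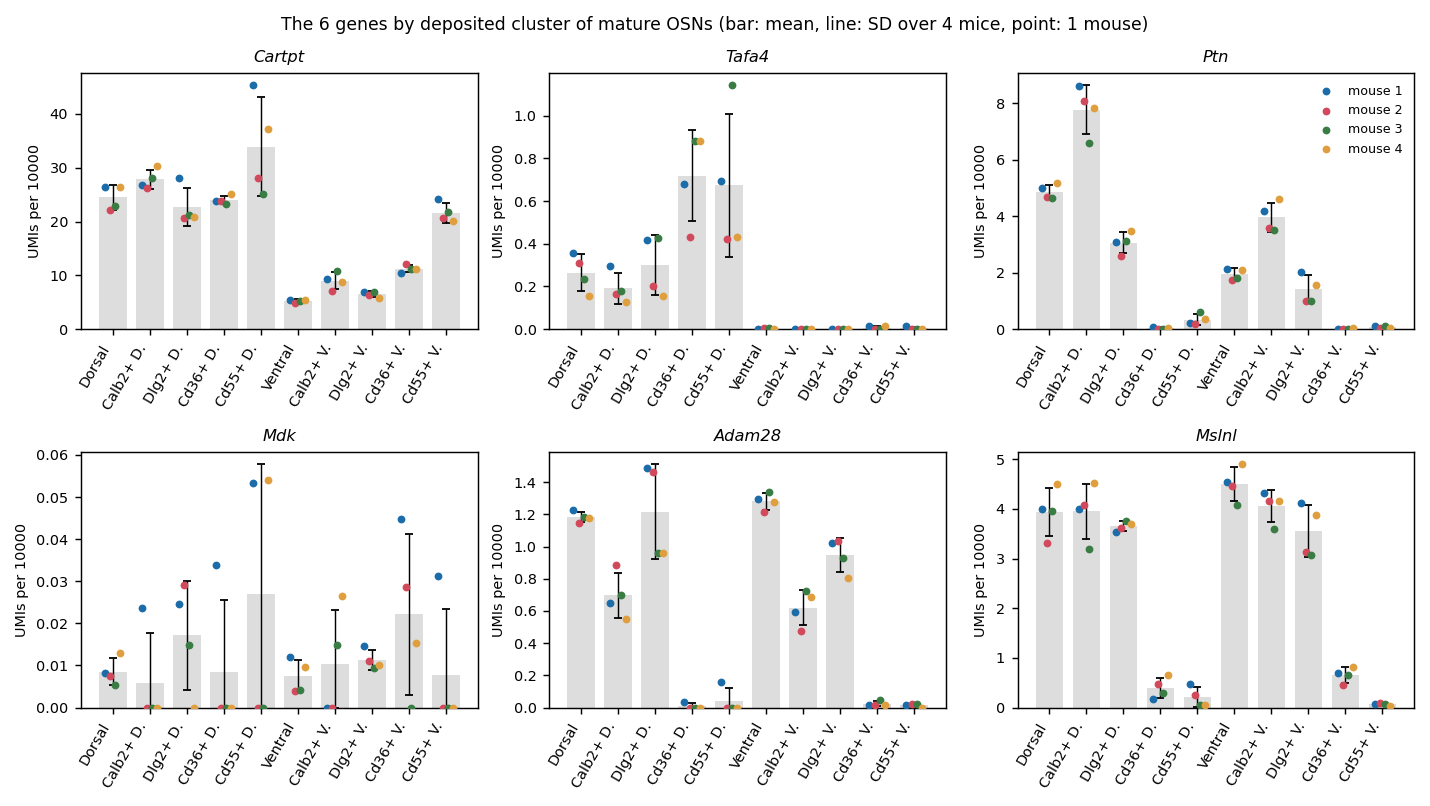
Level of each gene in the 10 clusters of mature OSNs, in UMIs per 10000 (y axis), with 1 point per mouse, a bar for the mean and a line for the SD over 4 mice. Ptn, Adam28 and Mslnl are low in the Cd55+ and Cd36+ clusters of both sides, the mean of Tafa4 lies below 0.01 in all ventral clusters, and that of Cartpt runs from 5.25 in Ventral to 33.9 in Cd55+ D.

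Populations were compared where a receptor identity was held by 10 or more mature OSNs, which left 353 of 960 populations with 7096 of 10519 mOSNs. Cartpt was spread most widely. Its pooled level over all mice had a median of 10.3 over populations, a 90th percentile of 27.4 and a highest value of 42.4, with 8 populations at 0. The 81 highest populations held 50% of the summed level. Tafa4 was at 0 in 303 populations, and 15 populations held 50% of it. Ptn (62 populations at 0) and Adam28 (105 at 0) reached 50% in 57 and 59 populations, and Mslnl (28 at 0) in 78. Over the 8355 genes of at least 0.1 UMIs per 10000, the median was 102 populations. Ranked from the most concentrated, Tafa4 was 7th, Ptn 168th, Adam28 216th, Mslnl 1640th and Cartpt 1933rd, while Mdk lay under that level. These ranks are a description, since the members were chosen for their levels in the same neurons.

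**Figure D3:**
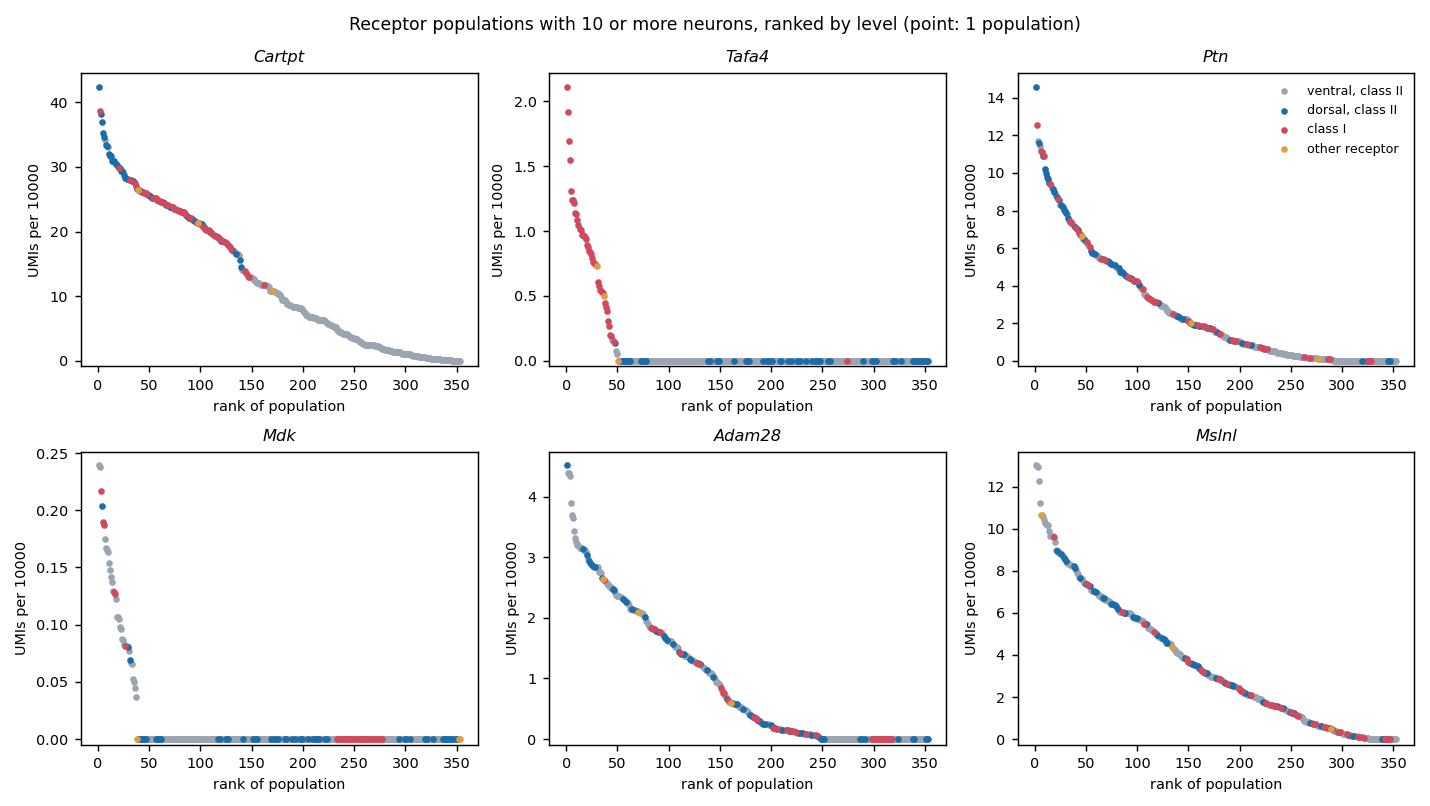
Level of each gene in the 353 populations (y axis, UMIs per 10000 pooled over mice) against their rank, with colours for side and receptor class. No curve drops to 0 after the first population, and the highest pooled values are 42.4 for Cartpt, 2.11 for Tafa4, 14.6 for Ptn, 0.239 for Mdk, 4.52 for Adam28 and 13.0 for Mslnl.

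The populations highest in Cartpt by the mean over mice were Olfr592, Olfr348, Olfr358, Olfr1002 and Olfr441. Olfr592 neurons stood at 59.0, 26.2, 32.1 and 36.7 in mice 1 to 4 and Olfr348 neurons at 48.8, 39.1, 29.5 and 31.3, and the other 3 populations had means of 34.0 to 36.4. Every neuron of these 5 populations held a Cartpt UMI, and each overlapped with the next in order. With the side of a population taken from most of its neurons, the lowest pooled level of a dorsal population was 11.8 (Olfr544). By most frequent cluster, Olfr693 of Dlg2+ D., whose neurons were not mostly dorsal, was lower at 8.56. Ventral populations ran from 0 to 34.1 (Olfr855, of the Cd55+ V. cluster), and those of the Ventral cluster from 0 to 28.2 with a median of 3.12. Ventral populations thus reached both 0 and levels within the dorsal range, while no dorsal population was at 0.

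Among dorsal populations, Tafa4 was divided by the class of the receptor. All 42 dorsal class I populations held Tafa4 UMIs, 331 in all, with a median level of 0.862. Of 65 dorsal class II populations, 64 were at 0 and the remaining one held 1 UMI, and of 241 ventral class II populations 237 were at 0. Of the 2 ventral class I populations, 1 was at 0 and Olfr571 held 1 UMI (0.142). The Taar2 (4 UMIs in 12 cells) and Taar4 (7 UMIs in 13 cells) populations, which use trace amine-associated receptors, also held Tafa4. The highest populations were Olfr596 (2.29, 2.02, 2.78 and 0 in mice 1 to 4, from 9 UMIs), Olfr68, Olfr582, Olfr553 and Olfr665. Olfr553, with 1.47 ± 0.578 from 19 UMIs in 21 cells, was the best measured of them, Olfr68 rested on 6 UMIs, and all 5 overlapped with their neighbours.

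Ptn was highest in Olfr231 neurons, with 15.0, 17.1, 13.3 and 12.3 in mice 1 to 4. Olfr1395 (12.7), Olfr884 (11.7), Olfr677 (11.6) and Olfr972 (11.5) followed by mean over mice and overlapped in that order. The 4 mice gave Olfr231 a spread of 2.12 (SD), so its rank above Olfr1395 was not separated from that spread.

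Mdk had no population that could be told apart from the counting error. A total of 37 populations held a Mdk UMI, 35 of them a single UMI, and the highest 5 by mean over mice (Olfr1508, Olfr541, Olfr804, Olfr791 and Olfr446) rested on 1 UMI each.

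Adam28 was highest in Olfr874 neurons, with 5.41, 7.84, 4.30 and 3.41 in mice 1 to 4. Olfr824 (4.52), Olfr1463 (4.29), Olfr351 (4.13, with 10.0 in mouse 2) and Olfr186 (4.11) came next, and all overlapped. For Mslnl, the first place of Olfr1242 rested on mouse 1: its levels were 32.2, 5.03 and 8.88 in the 3 mice with such neurons, and its mean was 6.95 without mouse 1. Olfr1463 stood at 11, 11.5, 17.6 and 14.8, and Olfr1110 (13.6), Olfr531 (12.9) and Taar2 (12.7 ± 4.78) had like means. Olfr1463 was thus among the 5 highest populations for both Adam28 and Mslnl.

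The levels of Adam28 and Mslnl ran together across populations. Over 353 populations Pearson's r of log2(level + 0.1) was 0.77 and Spearman's rho 0.849, and within single mice, over the 212 to 310 populations with 3 or more cells in the mouse, r was 0.669 ± 0.0176. Over the 165 populations of the Ventral cluster alone it was 0.748. Of the 35 highest populations (10%) of each gene, 21 were shared, 60% of either list, and 19 of these 21 were ventral while Olfr30 and Olfr874 were dorsal. Mslnl also ran with Ptn (r = 0.707), and Ptn with Adam28 less closely (0.506). Cartpt ran against Adam28 (−0.379) and Mslnl (−0.280) and weakly with Tafa4 (0.311). These coefficients describe population levels that share libraries, depth and total UMIs, and the populations are not independent samples.

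**Figure D4:**
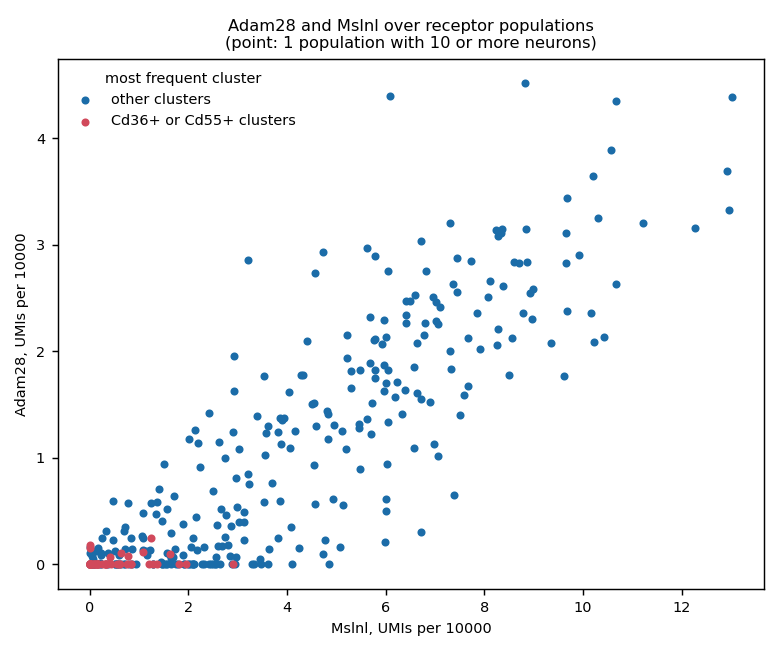
Pooled levels of Mslnl (x axis) and Adam28 (y axis) in the 353 populations, both in UMIs per 10000, with 1 point per population. The points rise together (r = 0.77 on the log2 scale), and populations of the Cd55+ and Cd36+ clusters lie at the low end of both axes.

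Among the 8354 other genes, those whose level over populations was most like Cartpt's were Calm2 (r = 0.785), which encodes a calmodulin, the actin-binding Tmsb4x (0.769), the axon guidance receptor Robo2 (0.755), the prion protein gene Prnp (0.704) and Actb (0.692). For Tafa4 the most like genes were Acss2 (0.535) and Acsm4 (0.534), which encode acyl-CoA synthetases, Ppa1 (0.524), Nqo1 (0.507), a quinone reductase known as a mark of the dorsal epithelium, and Socs2 (0.5). For Ptn they were D930020B18Rik (0.714), Mslnl, the sodium pump subunit Atp1b1 (0.634), Faim2 (0.617) and Gpm6a (0.599). For Adam28 they were the tubulin gene Tuba4a (0.817), Cadps2 (0.777), which encodes a dense core granule priming factor, the guidance receptor Nrp1 (0.773), Mslnl and Lpgat1 (0.697). For Mslnl they were Adam28, Stoml3 (0.744), which encodes a membrane protein of OSN cilia, Ptn, Tuba4a (0.695) and Faim2 (0.690). The gene running most against Mslnl was Cd55 (−0.890). For Mdk no coefficient was above 0.196 (Bub3), and at its counts none was read.

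The late immature neurons (iOSN2) had not been given receptor populations by the authors, and so offered cells in which the members' patterns could be tested. Of 1006 iOSN2 cells, 899 had 1 receptor above the limit of 8.28 UMIs per 10000 computed from mature OSNs. The same limit gave mature OSNs the deposited identity in 9791 of 9791 cells. It follows the authors' own rule, so the agreement shows only that the rule was repeated. The receptor calls in iOSN2 cells were not tested by it. Class I receptors were held by 85 of the 899 iOSN2 cells (11 to 32 per mouse) and class II receptors by 807 (164 to 217 per mouse). In edgeR's quasi-likelihood test on UMI sums per mouse, with the mouse as a block, 139 of 7707 genes (1.8%) passed an adjusted p of 0.05. Without mouse 1 the count was 70 genes. The members are given in turn.

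Cartpt was higher in class I iOSN2 cells, with 24.2, 21.3, 24.2 and 23.3 in mice 1 to 4, than in class II cells, with 17.0, 11.1, 13.5 and 11.9. The groups did not overlap, and the log2 fold change was 0.83 (SE 0.090, edgeR adjusted p = 2.19e-08). The side of the epithelium went with class, since most ventral cells held class II receptors. In cells whose receptor had a mature population with a side, a division chosen after the values were seen, Cartpt was 23.7 ± 4.52 in dorsal class I, 31.4 ± 3.34 in dorsal class II and 8.83 ± 0.718 in ventral class II cells. Within dorsal iOSN2 cells the class I level was therefore the lower mean, opposite to the comparison over all cells.

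Tafa4 divided by class already in immature neurons. Class I iOSN2 cells held 46 UMIs (0.856, 0.438, 0.792 and 0.509 per 10000 in mice 1 to 4) and class II cells 1 UMI (0, 0, 0.0063 and 0). The groups did not overlap, and the ratio of levels was 433 (95% exact interval 74.0 to 17479, counting error only). The gene passed the filter on low counts only through the class in which it was high, so no p is given. In iOSN1, the earlier stage, the counts were 20 against 1 UMI, a ratio of 179 (28.6 to 7407). Of the cells whose receptor had a mature population with a side, the 44 dorsal class I cells held 23 UMIs and 2 dorsal cells with other receptors 1 UMI, and 57 dorsal class II, 2 ventral class I and 375 ventral class II cells held none.

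Mslnl and Adam28 were lower in class I cells. Mslnl stood at 2.18, 1.61, 2.26 and 1.53 in class I and at 3.73, 4.13, 3.63 and 3.67 in class II cells, without overlap, a log2 fold change of −0.87 (SE 0.14, edgeR adjusted p = 4.05e-05). Adam28 stood at 0.535, 0.292, 0.244 and 0.170 against 1.04, 0.913, 0.832 and 0.967, also without overlap, a log2 fold change of −1.38 (SE 0.28, edgeR adjusted p = 0.00219). For Mslnl the division held within the dorsal side, with means of 1.47 in class I and 3.91 in class II cells, and ventral class II cells had 3.95. For Adam28 it was not separated there, with 0.374 ± 0.361 in dorsal class I and 0.666 ± 0.174 in dorsal class II cells, which overlapped. Cd55, whose clusters were low in both genes, was itself higher in class I iOSN2 cells (log2 fold change 1.81, edgeR adjusted p = 2.40e-06). The iOSN2 cells were not divided by Cd55 or Cd36, so class and these clusters cannot be told apart for Mslnl and Adam28. Ptn did not pass the test, with mean levels of 4.70 and 5.91 and a log2 fold change of −0.23 (edgeR adjusted p = 0.484). Mdk had 0 UMIs in class I and 7 in class II cells and was below the filter on low counts. Leaving Tafa4 aside, 3 of 4 members tested were called, beside 1.8% of all genes, 1 of them higher (0.986% of all genes) and 2 lower (0.817%).

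The receptor populations themselves were then asked whether a member's rank carried over to immature neurons. For each gene the 10% of mature populations with the highest pooled level (35 populations) were set against the others, in the 480 iOSN2 cells that held a receptor of any of the 353 populations. The last population inside and the first outside this group had near-equal levels, for example Olfr1157 at 27.7 and Olfr608 at 27.4 for Cartpt, Olfr594 at 7.45 and Olfr69 at 7.33 for Ptn, and Olfr228 at 2.66 and Taar2 at 2.63 for Adam28. Cartpt, Ptn, Adam28 and Mslnl were each called higher in immature cells with the receptors of their high populations. Adam28 and Mslnl shared 21 of their 35 high populations, so their comparisons rest in part on the same cells. For Ptn, Adam28 and Mslnl, all populations of the Cd55+ and Cd36+ clusters fell among the others. A population's rank and its cluster can therefore not be told apart for these 3 genes.

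Mslnl was 8.27, 9.03, 8.29 and 7.50 in those cells of mice 1 to 4 and 2.79, 3.53, 3.08 and 3.22 in the other cells, a log2 fold change of 1.41 (SE 0.10, edgeR adjusted p = 1.95e-17), where 1.26% of 5630 genes were called higher. Ptn was 11.7, 11.4, 12.8 and 14.0 against 4.69, 5.41, 5.29 and 4.88, a log2 fold change of 1.28 (SE 0.099, edgeR adjusted p = 1.27e-14, 0.617% of genes called higher). Neither gene showed overlap between the groups. Adam28 was 2.79, 1.79, 2.12 and 1.57 against 0.761, 0.706, 0.573 and 0.782, a log2 fold change of 1.57 (SE 0.22, edgeR adjusted p = 8.35e-08, 1.3% called higher), again without overlap.

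Cartpt was 38.8, 26.1, 30.1 and 29.6 in the 32 cells with the receptors of its high populations and 13.7, 10.1, 12.3 and 10.6 in the other 448. The groups did not overlap, and the log2 fold change was 1.38 (SE 0.11, edgeR adjusted p = 2.54e-25, 0.417% of genes called higher). Most of its high populations were dorsal, and the level in all dorsal class II iOSN2 cells was 31.4 ± 3.34, so a population's rank and its side cannot be told apart here. With only the cells in which exactly 1 receptor was detected, the fold change was 1.00 (SE 0.29) and the call was lost (edgeR adjusted p = 0.115). Tafa4 was 1.26, 0.384, 0.507 and 0.376 against 0.0437, 0, 0 and 0.0148, from 19 and 5 UMIs, without overlap. It passed the filter on low counts only through the high group, so no p is given, and 0.527% of all genes were called higher in that comparison. Of the 35 high populations of Tafa4, 34 were class I and the other was Taar4, so this comparison and that of the classes rest on much the same cells. For Mdk, 0 UMIs in 52 cells stood against 4 UMIs in 428 cells, and no test was made.

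**Figure D5:**
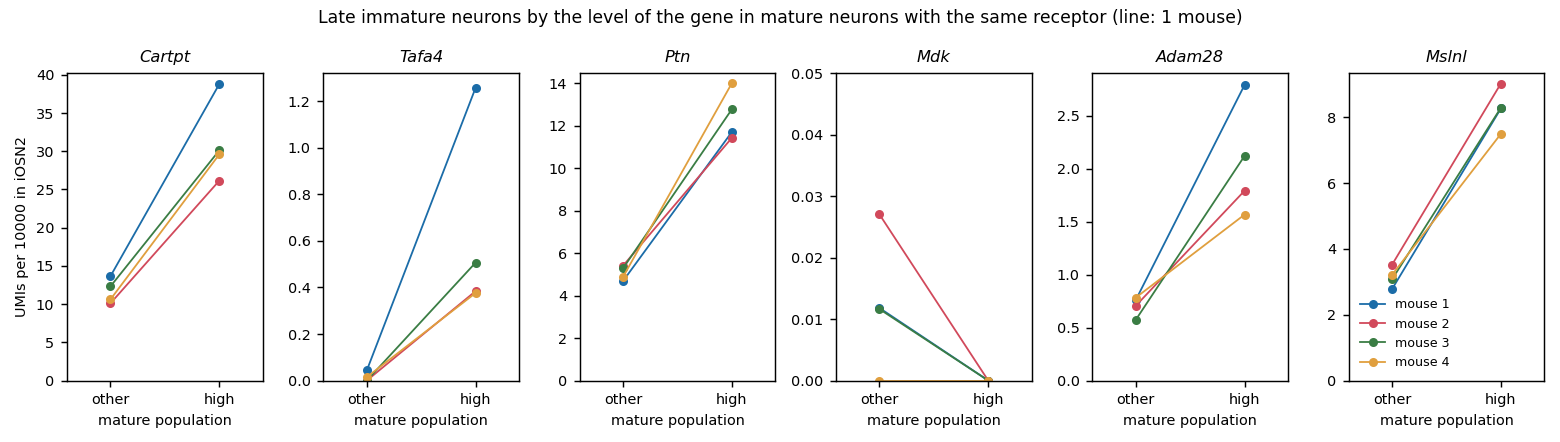
Level of each gene in late immature neurons, in UMIs per 10000, for cells with a receptor of the gene's 35 highest mature populations (high) and for the other cells, with 1 line per mouse. In every mouse the first group is above the second for Cartpt, Tafa4, Ptn, Adam28 and Mslnl, while Mdk has 0 UMIs against 4.

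Genes related to the members, in 6 lists, were followed in the mature OSNs and are called partner genes. The lists hold receptors and processing genes, and also gene relatives and other peptide precursors that need not act with a member. Between neurons with class I and class II receptors, 14 of the 37 partner genes tested passed, where 18.6% of all 11835 genes did (9.71% higher and 8.89% lower in class I, edgeR with the mouse as a block). The 14 include Avp, whose call is not read for the reason given with its values. Side went with class: of populations with 10 or more neurons, 42 of 44 class I were dorsal and 241 of 306 class II ventral. The partner genes were not divided by side, so class and side cannot be told apart in this comparison. Without the block 9 partner genes and 1080 of all genes passed, in place of 2201. Variation among the 42 populations with 5 or more neurons in every mouse (1782 neurons) passed for 8 of 11 partner genes tested, where 39.3% of 2207 genes did.

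Of the receptors and coreceptors of pleiotrophin and midkine, 9 of 15 were tested between the classes, 1 was higher and 1 lower. Nrp1, a coreceptor for guidance and growth factors, stood at 0.112 ± 0.0220 in class I neurons against 0.397 ± 0.0242, without overlap, a log2 fold change of −1.70 (SE 0.15, edgeR adjusted p = 8.74e-22). The syndecan gene Sdc2 rose by 0.16 on the log2 scale (edgeR adjusted p = 0.0101), from 2.08 to 2.22, with overlap between mice and with its call lost without mouse 1 or mouse 4. Among populations Sdc2 (F = 2.04) and Sdc3 (F = 2.53) were called, 2 of 3 tested, Sdc2 not without mouse 1 or mouse 3.

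Of the other Tafa genes and receptors, none of 3 tested was called between the classes.

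Of the genes of peptide processing and dense core granules, which a CART precursor needs, 13 of 15 were tested between the classes, 5 were higher and 2 lower in class I neurons. Pcsk2, a prohormone convertase, stood at 0.250, 0.146, 0.220 and 0.314 in class I neurons of mice 1 to 4 and at 0.0593 ± 0.00662 in class II neurons, a log2 fold change of 2.04 (SE 0.19, edgeR adjusted p = 1.43e-21). Pcsk1n, which encodes a convertase inhibitor, was 0.488 ± 0.0215 against 0.233 ± 0.0111, a log2 fold change of 1.13 (edgeR adjusted p = 9.83e-20). Both genes were without overlap between the classes. The granule genes Scg3 (0.42), Chga (0.08) and Scg2 (1.22) also passed, although the class levels of all 3 overlapped between mice. Scg2 rested on 23 and 79 UMIs and its fold change was 0.48 without mouse 1 and 0.98 without mouse 4, where its call was lost, as was that of Chga without mouse 2 or mouse 3. Cpe, the carboxypeptidase that trims peptides after cleavage, and Cadps2 fell by 0.37 and 0.49. Among populations 5 of 7 tested were called, led by Cadps2 (F = 12.3) and Scg3 (F = 7.13) and followed by Chga (4.86), Cpe (4.50) and Chgb (3.61).

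Of other peptide precursors, 4 of 25 were tested between the classes, and beside Avp 1 was higher and 1 lower. Nppc, the precursor of C-type natriuretic peptide, was higher in class I neurons (0.477 ± 0.0942 against 0.147 ± 0.0427, log2 fold change 1.78, edgeR adjusted p = 5.00e-34) and Pomc was lower (0.152 against 0.247, log2 fold change −0.60, edgeR adjusted p = 0.00149), a call that was lost with DESeq2 (adjusted p = 0.0658). Avp, the vasopressin precursor, had 2 UMIs in all class I neurons against 1904, but its class II levels of 1.03, 0.0442, 0.128 and 0.333 in mice 1 to 4 were carried by few cells. It passed the filter on low counts only through class II, so its call is not read. Only 126 of 10519 mOSNs held an Avp UMI, and the 10 highest cells held 84.7% of all its UMIs. Its highest pooled level, 86.2 in Olfr1508 neurons, came from 582 UMIs in 1 cell. In Olfr1346 neurons, 13 of 17 cells held Avp and the levels were 204, 6.46, 11.2 and 29.5 in mice 1 to 4. The members had no such cells: the 10 highest mOSNs held 1.52% of the UMIs of Cartpt, 7.27% of Tafa4, 1.13% of Ptn, 1.44% of Adam28 and 0.714% of Mslnl. For Mdk the share was 22%, of only 50 UMIs.

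Of other Adam proteases and Timp inhibitors, 9 of 15 were tested between the classes. Adam22 was higher (log2 fold change 0.24, edgeR adjusted p = 0.0211) and Adam23 lower (−0.46, edgeR adjusted p = 0.00322), both of which encode Adam proteins without protease activity, and the class levels of both overlapped. The call of Adam22 was lost without mouse 1 or mouse 3 and that of Adam23 without mouse 4. None of the 4 mesothelin relatives and partners had counts enough for a test.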

How the data were processed

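The study measured RNA in single cells of the main olfactory epithelium of 4 mice in 1 group. Cells came as labelled by the authors, who aligned the reads to GRCm38 with Cell Ranger 6.0.1, using an Ensembl annotation with re-annotated 3′ ends of receptor genes, and removed immune, blood and damaged clusters. The deposited values are UMI counts per gene and cell, not normalized, and the merged table equals the tables of single mice in every value. The authors removed mature OSNs with no receptor or more than 1 above their limit, and no further doublet caller was run here.

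Counts were summed per mouse and cell type, cluster or population and given per 10000 UMIs. Receptors of immature neurons were called above the median minus 3 scaled MADs of the highest receptor in mature OSNs, with class I as the 156 Olfr genes of the chromosome 7 cluster. Sums were tested with edgeR 4.0.16 (quasi-likelihood, TMM, filterByExpr, Benjamini-Hochberg at 0.05, receptor genes left out) in R 4.3.3, with the mouse as a block, since both sums of a pair come from the same animal and library. With that block, P-values set a difference within mice against how it varied from mouse to mouse. The dispersion was estimated in part from all genes tested, so a small p is not a measure of the spread between these mice. In simulated counts for the comparison of classes in iOSN2 cells, 190 of 200 genes changed 4-fold were recovered. These genes had at least 200 UMIs and a fixed dispersion, with no difference between mice added. The change was also larger than those of the members given a p between classes, so their power is not known from it. Alternatives were DESeq2 1.42.0, no filter, no block, other cell choices and leaving out each mouse.

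The members and lists were chosen with earlier results of these data known. Named were the members, their 5 highest populations, the 5 genes with the most like levels over populations (Pearson's r of log2(level + 0.1), mean level at least 0.1) and every partner gene called. The intervals and the limit that a count of 0 allows (3 counts) cover counting error only. A partner gene and a marker gene are not reported here.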

Additional observations from a re-analysis of the deposited data

Results flagged for a closer look

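Of 120 groups of 4 mice (6 genes in 10 cell types and 10 clusters), 15 held a mouse that stood far from the other 3. Chance alone flags about 1 in 20 groups with ample counts. That rate does not hold for groups with few UMIs, where 1 mouse with a UMI beside 3 at 0 is always flagged. The number 15 was therefore not read against it. With usable counts, Cartpt in Mv1 was 2.26 in mouse 2 and at most 0.145 in the others, and Cartpt in Dlg2+ D. was 28.1 in mouse 1 against 20.6 to 21.3. Ptn in HBC2 was 1.92 in mouse 3 against 2.75 to 2.86, Adam28 in HBC1 was 6.72 in mouse 3 against 5.19 to 5.39, and Mslnl in iOSN2 was 3.80 in mouse 2 against 3.42 to 3.46.

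The other 10 rested on 6 UMIs or fewer. Tafa4 was 0.00623 in Mv2 of mouse 2 and 0.0156 in Cd55+ V. of mouse 1. Mdk in mouse 1 was 0.0339 in Cd36+ D., 0.0312 in Cd55+ V. and 0.0237 in Calb2+ D., with 0 in the other mice. Adam28 was 0.181 in Mv1 of mouse 2, 0.160 in Cd55+ D. and 0.0339 in Cd36+ D. of mouse 1, and 0.0473 in Cd36+ V. of mouse 3. Ptn in Cd36+ V. was 0.0305 in mouse 4 against 0.0143 to 0.0158.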

How the results depend on the processing

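Counts limit Mdk in neurons and Tafa4 in single populations. The number of populations that hold 50% of Mdk was 8 with neurons of exactly 1 detected receptor, 6 with cells thinned to 5000 UMIs and 7 to 11 with a mouse left out (7 without mouse 1), against 13. Genes called between classes in iOSN2 cells numbered 71 with DESeq2 and 70 to 133 with a mouse left out (70 without mouse 1), against 139. The call of Cartpt in immature cells of its high populations was lost with cells of exactly 1 detected receptor (log2 fold change 1.00, edgeR adjusted p = 0.115). Tafa4 fell below the filter in its own comparison of high populations without mouse 1, with exactly 1 receptor and with the top 5% of populations, so no value was had. The other tested calls of members in iOSN2 cells held under all alternatives run.

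Without the replicate block, the class comparison in iOSN2 cells gave log2 fold changes of 0.84 for Cartpt, −0.20 for Ptn, −1.32 for Adam28 and −0.88 for Mslnl, and the high populations 1.39, 1.28, 1.54 and 1.41 for the same genes, and none of these calls changed. Partner genes called between classes in mature OSNs numbered 9 without the block (1080 of all genes), 8 with DESeq2 (1017 of all genes) and 11 to 13 with a mouse left out, against 14 (2201). The calls of Adam22, Chga, Sdc2 and Scg2 were each lost under 3 or more alternatives, Scg2 without mouse 1 among them (0.48), that of Adam23 also with DESeq2, without the block and without mouse 4, and that of Pomc with DESeq2. Among populations, partner calls numbered 17 with no filter (1573 of all genes) and 6 to 8 with a mouse left out, against 8, and Sdc2 was lost with no filter, without mouse 1 and without mouse 3.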
